A study of Mus musculus with 18 samples.

Results

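Transcripts of 10 genes known from endothelial cells, the cells that line blood and lymph vessels, were followed in marrow preparations of 18 mice. The genes were taken by name (Cdh5, Pecam1, Kdr, Tek, Tie1, Emcn, Flt1, Flt4, Rhoj and Stab2), and all 10 were among the 19505 genes with a named probe set. Each had 1 probe set on the array. The arrays were read from total RNA of cells labelled as bone marrow mesenchymal (BM-MSCs, the marrow's stromal cells, which can form bone and fat) of 5 NeuT and 5 BALB/c mice of 12 weeks and of 4 NeuT and 4 BALB/c mice of 24 weeks, 1 array per mouse. The NeuT strain is known as a BALB/c-background model of mammary cancer, driven by an activated form of rat Erbb2 (HER2/neu) under the mammary tumour virus promoter. The labels call them tumour-bearing at both ages, in an early stage at 12 weeks and a late stage at 24 weeks. Transgene and tumour therefore cannot be told apart, and neither can age and any processing batch of the mice of each age. BALB/c mice were the controls. Cells were taken from femurs and tibias after depletion with beads against blood-cell antigens (CD45, Ter119, CD11b, CD11c, CD3, Gr1 and B220). CD31, the product of Pecam1, was not among these antigens.

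Marrow vessels include arterioles and wide, leaky sinusoids, through which blood cells leave the marrow. Endothelial cells are held together by VE-cadherin (Cdh5) and CD31 (Pecam1), and they respond to vascular endothelial growth factors (VEGFs) through the receptors encoded by Flt1, Kdr and Flt4. Angiopoietins act on the receptor encoded by Tek, which is modulated by its relative Tie1. Several of these genes are not exclusive to endothelium: Pecam1 is also active in platelets and leukocytes, Tek in haematopoietic stem cells and Flt1 in monocytes.

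All values are log2 signals after RMA, in which a difference of 1 is a doubling of signal. The array medians lay between 8.43 and 8.56. Correlations between arrays across genes, which are not independent replicates, ran from 0.978 to 0.997. The 3 arrays with the lowest median correlations with the rest had 0.987 (replicate 4 of the 12-week NeuT mice), 0.988 (replicate 3 of the 24-week BALB/c mice) and 0.9908 (replicate 1 of the 24-week NeuT mice). The next lay close to the last of these, at 0.9913 (replicate 2 of the 12-week BALB/c mice) and 0.9917 (replicate 4 of the 24-week NeuT mice). Negative control probe sets had a median of 7.35 and a 95th percentile of 10.46, and the table has no detection calls. Cdh5, Pecam1, Kdr, Tie1, Flt1 and Rhoj read above the median of the negative controls of the same array in all 18 arrays, Flt4 in 16 and Emcn in 10. Tek and Stab2 read under it in all 18, so their values compare signals and the size of a change in their transcripts is not known. Only Rhoj passed the 95th percentile, in 2 arrays. Of 11 markers of marrow stromal cells 9 had a mean above the negative-control median and none above the 95th percentile, so the labelled cell type is not clearly marked by this measure. In such bulk RNA, fewer endothelial cells and less RNA per cell cannot be told apart.

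**Figure D1:**
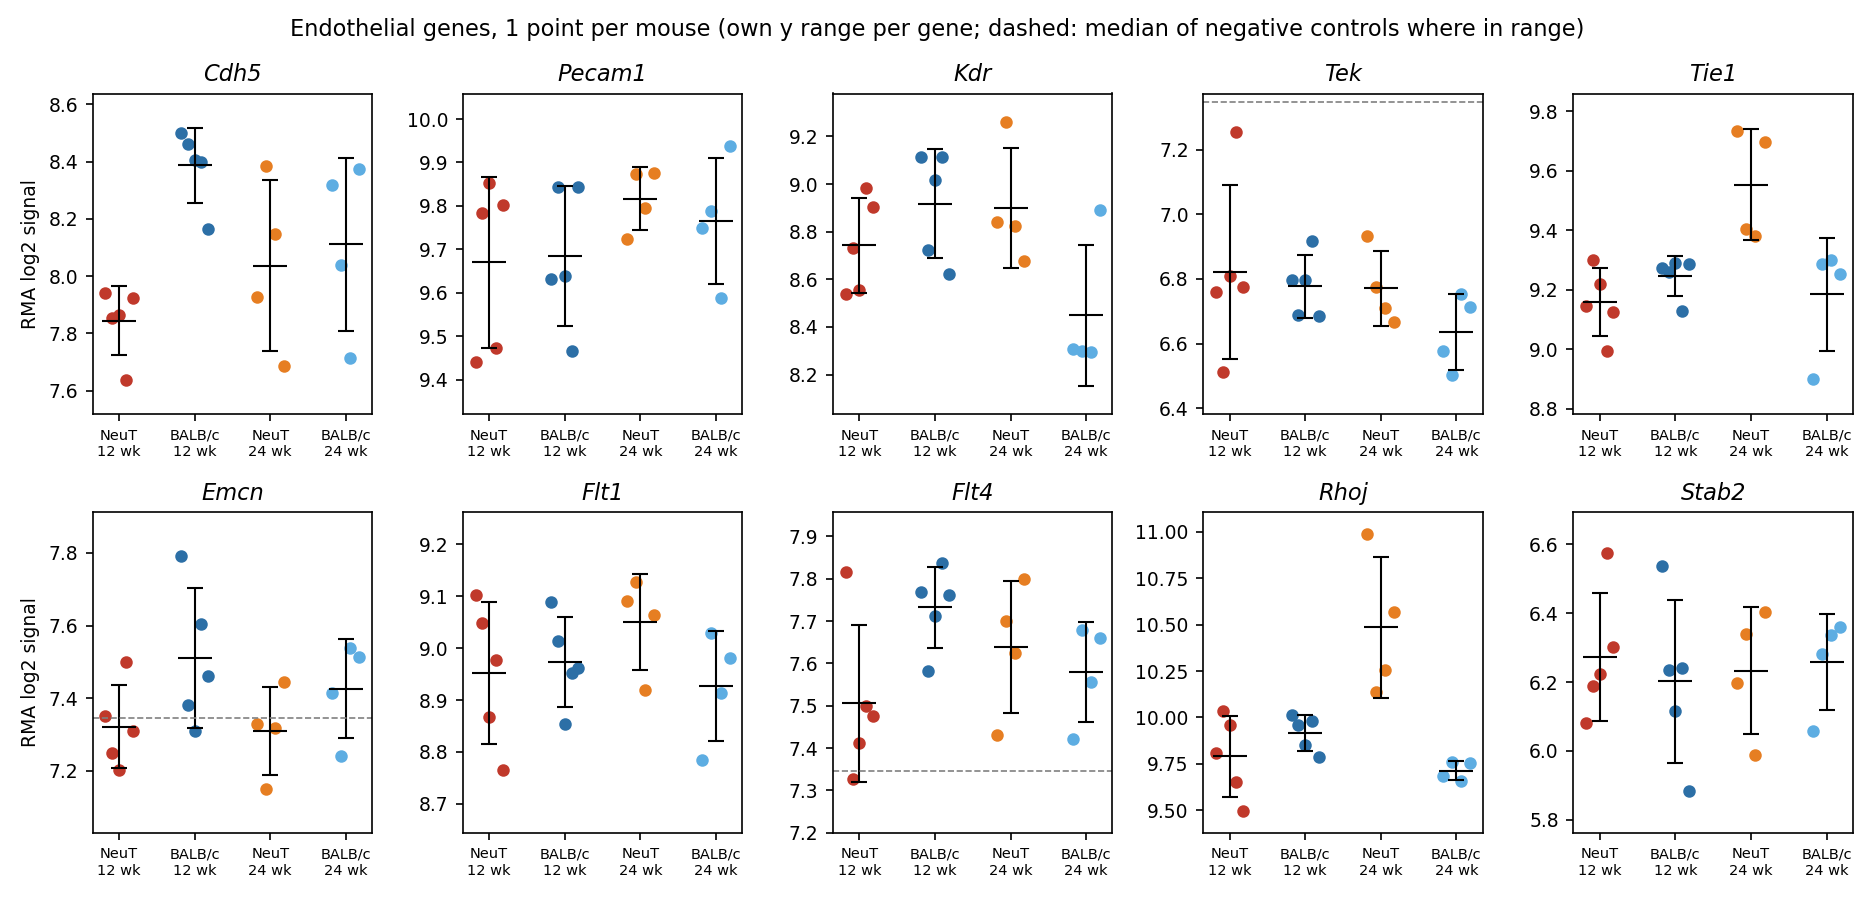
RMA log2 signal (y axis, own range for each gene) of the 10 endothelial genes in each mouse (points), by mouse model and age (x axis), with the group mean and SD as black bars and the median of the negative controls dashed where in range. Cdh5 separates the 12-week groups, with NeuT mice at 7.64 to 7.94 and BALB/c mice at 8.16 to 8.50, and Rhoj separates the 24-week groups, with NeuT mice at 10.14 to 10.99 and BALB/c mice at 9.66 to 9.76.

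At each age the mouse models were compared to ask whether endothelial transcripts in the preparation differ between tumour-bearing mice and controls. At 12 weeks Cdh5 fell in NeuT mice and the other 9 genes did not pass the test. At 24 weeks Rhoj rose in NeuT mice and, again, 9 did not pass. The difference between the ages was tested as well, and no member passed it. The test throughout was limma's moderated test, fitted to all 19505 genes with 1 mean for each of the 4 groups, two-sided, with p-values adjusted by Benjamini-Hochberg over all genes and a threshold of 0.05.

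Of the junction and surface genes, Cdh5 (Entrez gene 12562), which encodes the adhesion molecule of endothelial adherens junctions, gave signals of 7.94, 7.85, 7.86, 7.64 and 7.92 in 12-week NeuT mice, against 8.50, 8.46, 8.41, 8.40 and 8.16 in 12-week BALB/c mice. Every NeuT mouse lay below every BALB/c mouse, and NeuT replicate 4 was the lowest. The log2 difference was -0.54 ± 0.12 (SE, limma adjusted p = 0.0150, n = 5 and 5), with group means of 7.84 ± 0.12 (SD) in NeuT and 8.39 ± 0.13 in BALB/c mice. That is 1 member lower of 10, where 0.687% of all genes were called lower at this age and 3.15% higher. The call ended without BALB/c 12-week replicate 2 (adjusted p = 0.0513) and without NeuT 12-week replicate 4 (adjusted p = 0.0532). The value was -0.28 (adjusted p = 0.695) with each array's mean of the neutrophil and B-cell markers as covariates. That covariate fit called 4 genes of the whole array at 12 weeks, against 749 in the fit reported, so the loss was not particular to Cdh5.

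Cdh5 in 24-week mice read 7.93, 8.39, 8.15 and 7.69 in the NeuT group and 8.32, 8.04, 7.72 and 8.37 in the BALB/c group. These groups overlapped over nearly their whole range, and each had a spread of 0.30 (SD), wider than at 12 weeks. The log2 difference of -0.07 had a 95% interval from -0.35 to 0.21 (limma adjusted p = 0.857). The effect at 24 weeks minus that at 12 weeks was 0.47 ± 0.18 (SE), which did not pass (limma adjusted p = 0.724). In order, the group means of Cdh5 were lowest in 12-week NeuT mice (7.84), followed by 24-week NeuT (8.04), 24-week BALB/c (8.11) and 12-week BALB/c mice (8.39), and only the lowest and the highest group differed by the test among the pairs tested here.

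Pecam1 and Emcn, the other surface genes, were not called at either age. Pecam1 (Entrez gene 18613) encodes CD31, an adhesion molecule at endothelial cell contacts. It gave 9.44, 9.78, 9.85, 9.47 and 9.80 in 12-week NeuT mice and 9.63, 9.84, 9.64, 9.47 and 9.84 in 12-week BALB/c mice. The 2 groups covered the same range, and the log2 difference was -0.01 with a 95% interval from -0.21 to 0.18. At 24 weeks it averaged 9.82 ± 0.07 (SD, n = 4) in NeuT and 9.77 ± 0.15 in BALB/c mice, with an interval of the difference from -0.17 to 0.27. Emcn (Entrez gene 59308) encodes endomucin, a sialomucin of venous, capillary and sinusoidal endothelium. Its log2 difference was -0.19 at 12 weeks (95% interval -0.37 to -0.0021, limma adjusted p = 0.232), with means of 7.32 ± 0.12 (SD) in NeuT and 7.51 ± 0.19 in BALB/c mice, and -0.12 at 24 weeks (interval -0.32 to 0.09). These means lie about the median of the negative controls.

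The VEGF receptor genes showed no call in either comparison. Kdr (Entrez gene 16542) encodes VEGFR2, the main signalling receptor for VEGF-A. In 24-week mice it gave 8.84, 9.26, 8.82 and 8.68 in the NeuT group and 8.31, 8.30, 8.29 and 8.89 in the BALB/c group. BALB/c replicate 4 lay within the NeuT range, while the other 3 BALB/c mice lay below all NeuT mice. The log2 difference was 0.45 ± 0.15 (SE, 95% interval 0.15 to 0.76, limma adjusted p = 0.143). Without BALB/c 24-week replicate 4, the mouse within the NeuT range, it was 0.60 and passed (adjusted p = 0.0397). It did not pass in the other 17 fits without 1 array or in any of 11 other limma settings. At 12 weeks Kdr read 8.54 to 8.98 in NeuT and 8.62 to 9.11 in BALB/c mice, with a difference of -0.18 (interval -0.45 to 0.10).

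Flt4 (Entrez gene 14257) encodes VEGFR3, the receptor for VEGF-C and VEGF-D that marks lymphatic and, in marrow, sinusoidal endothelium. It read 7.81, 7.33, 7.41, 7.50 and 7.48 in 12-week NeuT mice and 7.77, 7.58, 7.71, 7.84 and 7.76 in 12-week BALB/c mice. NeuT replicate 1 lay among the BALB/c mice and the other 4 NeuT mice lay below them all. The log2 difference of -0.23 ± 0.089 (SE) did not pass (limma adjusted p = 0.144), but it passed with array weights (-0.30, adjusted p = 0.0222). The fit with array weights called 2088 genes of the whole array at 12 weeks, against 749 in the fit reported. The Flt4 difference passed in none of the 18 fits without 1 array and in none of the other 10 limma settings. At 24 weeks it was 0.06 (95% interval -0.15 to 0.27). Flt1 (Entrez gene 14254) encodes VEGFR1, which binds VEGF-A and placental growth factor. It varied least of the 10 genes, between 8.76 and 9.13 over all arrays, with differences of -0.02 at 12 weeks (interval -0.18 to 0.13) and 0.12 at 24 weeks (interval -0.05 to 0.30).

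Of the angiopoietin receptor pair, Tie1 (Entrez gene 21846), an orphan receptor that pairs with the Tek product, gave 9.73, 9.41, 9.38 and 9.70 in 24-week NeuT mice and 8.90, 9.29, 9.30 and 9.25 in 24-week BALB/c mice. The groups did not overlap, with BALB/c replicate 1 far below the rest. The log2 difference was 0.37 ± 0.099 (SE) and missed the threshold (limma adjusted p = 0.0663, 95% interval 0.16 to 0.57). It passed without NeuT 24-week replicate 2 (0.42, adjusted p = 0.0288) and without replicate 3 of that group (0.43, adjusted p = 0.0469), and was 0.27 without BALB/c replicate 1 (adjusted p = 0.198). Of the 18 fits without 1 array, 16 missed the threshold. At 12 weeks Tie1 read 8.99 to 9.30 in NeuT and 9.13 to 9.29 in BALB/c mice, with a difference of -0.09 (interval -0.27 to 0.09). Tek (Entrez gene 21687), which encodes the angiopoietin receptor TIE2, had differences of 0.05 (interval -0.16 to 0.25) and 0.13 (interval -0.10 to 0.37) at 12 and 24 weeks, at signals of 6.50 to 7.25.

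Stab2 (Entrez gene 192188) encodes stabilin-2, a scavenger receptor for hyaluronan on sinusoidal endothelium. Its signals were the only ones besides those of Tek to stay under the negative-control median in every array. It read 5.99 to 6.40 in 24-week NeuT and 6.06 to 6.36 in 24-week BALB/c mice, and 6.08 to 6.57 and 5.88 to 6.54 in the NeuT and BALB/c mice of 12 weeks. The log2 differences were 0.07 (95% interval -0.16 to 0.30) at 12 weeks and -0.03 (interval -0.28 to 0.23) at 24 weeks.

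Rhoj (Entrez gene 80837) encodes a small GTPase of the Cdc42 family that in endothelial cells is known to act in migration and vessel shaping. In 24-week NeuT mice its signals were 10.99, 10.14, 10.25 and 10.57, against 9.69, 9.76, 9.66 and 9.75 in 24-week BALB/c mice. All NeuT mice lay above all BALB/c mice, NeuT replicate 1 highest, and the NeuT mice were far more spread (SD 0.38) than the BALB/c mice (SD 0.05). The log2 difference was 0.77 ± 0.14 (SE, 1.71-fold, limma adjusted p = 0.0151, n = 4 and 4). That is 1 member higher of 10, where 1.18% of all genes were called higher at this age and 0.220% lower, and by p it ranked 11 among all genes.

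The Rhoj call at 24 weeks depended on several choices. Without NeuT 24-week replicate 1 the difference was 0.61 (adjusted p = 0.0629), without replicate 4 of that group 0.75 (adjusted p = 0.0772), and without all 3 arrays of lowest correlation named above 0.59 (adjusted p = 0.106). These 3 arrays include NeuT 24-week replicate 1, the highest in Rhoj. With the neutrophil and B-cell marker means as covariates the Rhoj difference was 0.41 (adjusted p = 0.843). In a fit of the 24-week mice alone it was 0.77, as reported, and the adjusted p was 0.100. Over the whole array the covariate fit called 2 genes at 24 weeks and the fit of the 24-week mice alone 1, against 274 in the fit reported. In 12-week mice Rhoj read 9.81, 10.03, 9.96, 9.65 and 9.50 in the NeuT group and 10.01, 9.96, 9.85, 9.98 and 9.78 in the BALB/c group. These groups overlapped, with a difference of -0.13 (95% interval -0.38 to 0.12). The effect at 24 weeks minus that at 12 weeks was 0.90 ± 0.18 (SE). It ranked 7 among all genes by p and did not pass (limma adjusted p = 0.148).

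**Figure D2:**
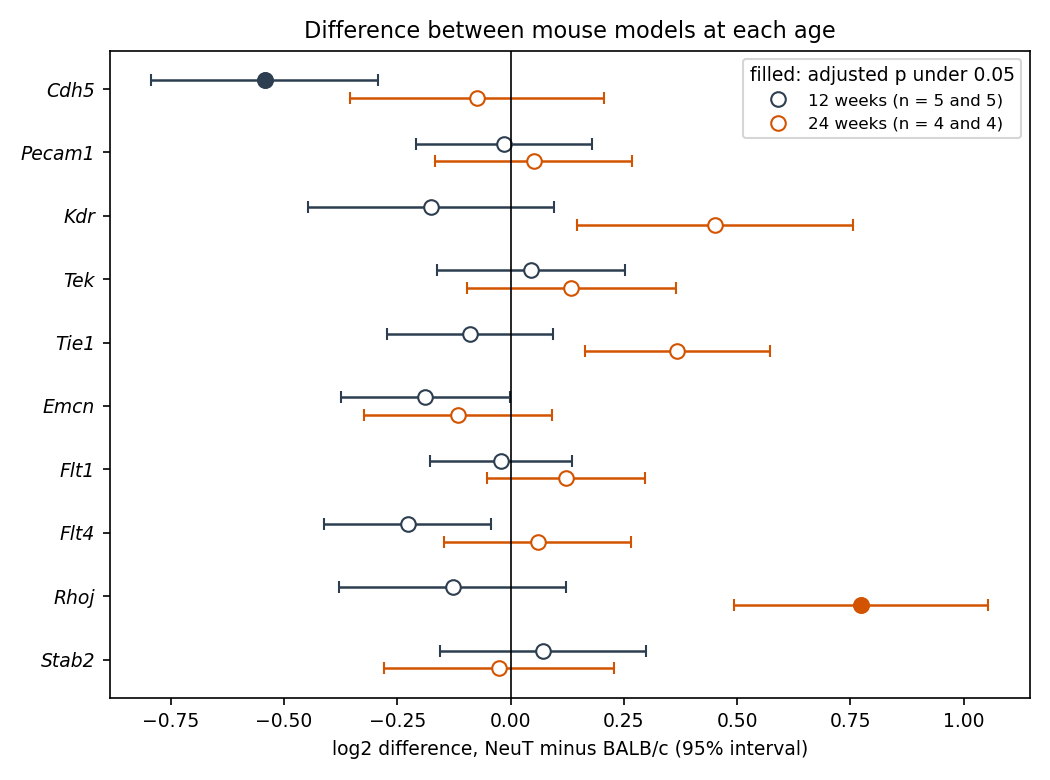
Log2 difference between NeuT and BALB/c mice (x axis) for each endothelial gene (y axis) at 12 weeks (dark) and 24 weeks (orange), with 95% intervals from the limma fit and filled points for an adjusted p under 0.05. Cdh5 at 12 weeks (-0.54) and Rhoj at 24 weeks (0.77) are the filled points, and Kdr and Tie1 at 24 weeks have intervals above 0 without passing.

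Over the 10 genes the values were below 0 in 8 at 12 weeks, with a median of -0.11 against -0.03 over all genes, and above 0 in 7 at 24 weeks, with a median of 0.09 against 0.00 over all genes. At an unadjusted p under 0.05, 3 members were lower at 12 weeks (Cdh5, Emcn and Flt4), where 9.41% of all genes were, and 3 were higher at 24 weeks (Kdr, Tie1 and Rhoj), where 9.2% of all genes were. Groups did not overlap for 1 member at 12 weeks, Cdh5, which was lower, and for Tie1 and Rhoj at 24 weeks, which were higher. Over all genes this was so for 2.82% downwards and 4.95% upwards in these comparisons. For the difference of the effects, 24 minus 12 weeks, limma called none of the 10, as against 2 of all genes (0.0103%), and 5 members (Cdh5, Kdr, Tie1, Flt4 and Rhoj) had an unadjusted p under 0.05, all upwards, where 3.82% of all genes did. As a mean over both ages Cdh5 was lower (-0.31 ± 0.091 SE, limma adjusted p = 0.0363) and Rhoj higher (0.32 ± 0.091, adjusted p = 0.0290), where 2.09% and 6.47% of genes were called lower and higher. After a further quantile normalisation neither was called (adjusted p = 0.0734 for Cdh5 and 0.0619 for Rhoj). Of the 18 fits without 1 array, Cdh5 passed in 7, those without replicate 5 of the 12-week BALB/c mice, 1 or 5 of the 12-week NeuT mice, 2 or 3 of the 24-week BALB/c mice and 2 or 3 of the 24-week NeuT mice. Rhoj passed in 12, and missed without replicate 5 of the 12-week BALB/c mice, 2 or 3 of the 12-week NeuT mice, 3 of the 24-week BALB/c mice and 1 or 4 of the 24-week NeuT mice.

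The same genes were then compared between ages. In NeuT mice Rhoj averaged 10.49 ± 0.38 (SD, n = 4) at 24 weeks and 9.79 ± 0.22 (n = 5) at 12 weeks, and it was higher at 24 weeks by 0.70 on the log2 scale (limma adjusted p = 0.0469). This comparison called 5 genes higher of all 19505 (0.0256%), and Rhoj ranked 7 by p. Of 18 fits without 1 array the call ended in 14, with adjusted p over all of them between 0.0128 and 0.268. It passed without replicate 3 of the 12-week NeuT mice, 3 of the 24-week BALB/c mice, or 2 or 3 of the 24-week NeuT mice. It also ended after a further quantile normalisation, cyclic loess or median centring (0.0715, 0.0660 and 0.0643). Tie1 did not overlap between the ages either, at 9.38 to 9.73 in 24-week and 8.99 to 9.30 in 12-week NeuT mice (log2 difference 0.40 ± 0.094 SE, limma adjusted p = 0.0877), and over all genes groups did not overlap upwards in 2.96%. In BALB/c mice limma called none of the 10, where 0.579% of all genes passed in either direction. Kdr there averaged 8.45 ± 0.30 (SD, n = 4) at 24 weeks and 8.92 ± 0.23 (n = 5) at 12 weeks, a difference of -0.47 (95% interval -0.76 to -0.18, adjusted p = 0.102). Without BALB/c 24-week replicate 4 it was -0.62 and passed (adjusted p = 0.0370), and it missed in the other 17 fits without 1 array. Rhoj in BALB/c mice read 9.66 to 9.76 at 24 weeks and 9.78 to 10.01 at 12 weeks, without overlap (difference -0.20, adjusted p = 0.473, and exact permutation p = 0.0159), where 3.57% of all genes did not overlap downwards. Each age comparison shares its mice with the comparisons between the models.

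Rhoj, Tie1 and Kdr had the highest log2 differences of the 10 genes at 24 weeks, and their promoters are shown for that reason. The windows are 300 bases around the RefSeq start of the gene (GRCm38.p6), mostly before it, and are written 5′ to 3′ on the gene's strand. Capitals mark GGAA or its reverse complement, the core that ETS factors are known to bind. ETS factors such as ERG and FLI1 are known regulators of endothelial genes.
Rhoj: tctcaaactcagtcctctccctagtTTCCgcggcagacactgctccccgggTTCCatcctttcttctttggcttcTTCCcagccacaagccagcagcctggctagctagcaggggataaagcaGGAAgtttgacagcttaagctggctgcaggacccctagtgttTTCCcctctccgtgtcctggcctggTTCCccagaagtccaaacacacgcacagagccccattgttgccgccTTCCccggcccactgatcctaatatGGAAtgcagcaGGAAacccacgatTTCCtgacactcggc
Tie1: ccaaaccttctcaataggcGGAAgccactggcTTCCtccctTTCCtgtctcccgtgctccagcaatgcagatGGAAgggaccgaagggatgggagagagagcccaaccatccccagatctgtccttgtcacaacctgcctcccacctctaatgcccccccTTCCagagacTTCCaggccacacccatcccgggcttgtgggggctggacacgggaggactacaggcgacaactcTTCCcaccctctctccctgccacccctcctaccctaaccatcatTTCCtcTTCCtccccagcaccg
Kdr: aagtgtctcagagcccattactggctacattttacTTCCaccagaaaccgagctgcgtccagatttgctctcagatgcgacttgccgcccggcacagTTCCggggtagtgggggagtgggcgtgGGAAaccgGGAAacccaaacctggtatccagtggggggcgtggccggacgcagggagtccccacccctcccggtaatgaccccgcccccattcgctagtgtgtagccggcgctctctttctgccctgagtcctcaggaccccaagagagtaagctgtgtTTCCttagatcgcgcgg
The Rhoj window lies at chr12:75308063-75308362 on the plus strand, the Tie1 window at chr4:118489800-118490099 on the minus strand and the Kdr window at chr5:75978406-75978705 on the minus strand. Windows were found for 8 of the 10 genes, without Cdh5 and Pecam1. The motif GGAA, counted on both strands, occurred 10 times in the Rhoj, 9 times in the Tie1 and 5 times in the Kdr window. Among the other members it occurred 6 times each for Emcn and Stab2, 4 times for Flt1 and 2 times each for Tek and Flt4. These counts were not compared with counts in other genes' windows. GGAA was present in all 8 windows, and in 96% of all 32851 windows of this length. The longer GGAAG, which contains it, was in 7 of 8 windows and in 71.4% of all. The GC box GGGCGG was in 3 of 8 (Kdr, Flt1 and Flt4) and in 35.7% of all, and the TATA box TATAAA in 1 (Flt1) and in 13.6%. These matches are letters in a window, and binding was not measured.

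Genes of the surrounding pathways were compared next, in 7 lists with 84 genes measured in all. Of 8 VEGF and angiopoietin ligand genes none passed limma's test at either age. Angpt1, which encodes the angiopoietin that activates the Tek product, differed by 0.37 on the log2 scale in the younger mice (adjusted p = 0.0562) and by 0.38 in the older (0.128). Pgf, the placental growth factor gene, differed by -0.18 at 12 weeks (adjusted p = 0.307), and Vegfa, the VEGF-A gene, by 0.25 at 24 weeks (adjusted p = 0.213). Among 12 co-receptors and other receptors Tnfrsf1a, a tumour necrosis factor receptor gene of many cell types, was the single one to rise, by 0.39 in 12-week mice (adjusted p = 0.0428) and by 0.58 in 24-week mice (0.0235).

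Of 16 junction and surface genes beside the members, 2 fell at 12 weeks and 1 rose. Jam3 and Jam2, which encode junctional adhesion molecules, fell by 0.39 and 0.35 on the log2 scale (limma adjusted p = 0.0152 and 0.0326). Jam3 averaged 7.91 ± 0.10 (SD, n = 5) in NeuT and 8.30 ± 0.17 in BALB/c mice, and Jam2 7.22 ± 0.15 and 7.56 ± 0.14 in the NeuT and BALB/c mice, at the level of the negative-control median. Cd34, a sialomucin gene of endothelium and blood progenitors, rose by 0.36 (adjusted p = 0.0430). At 24 weeks none of the 16 passed, and Cd34 and Adgrl4, a receptor gene of endothelium, had values of 0.40 and 0.37 (adjusted p = 0.0755 and 0.0754). Of 13 transcription factor genes 1 rose at 12 weeks, Klf2, known to respond to shear stress in endothelium and to be active in lymphocytes (0.46, adjusted p = 0.00399), and none passed at 24 weeks, where Foxo1 and Lyl1 had values of -0.63 and 0.36 (adjusted p = 0.0506 and 0.0547).

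Sinusoidal and scavenger genes gave 2 calls of 11 at 24 weeks, both upwards. Selp, the P-selectin gene of endothelium and platelets, rose by 0.53 (limma adjusted p = 0.0282), with means of 10.87 ± 0.12 (SD, n = 4) in NeuT and 10.34 ± 0.23 in BALB/c mice, and Vcam1, an adhesion molecule gene of sinusoids, stromal cells and macrophages, by 0.47 (adjusted p = 0.0233). At 12 weeks their values were -0.27 and 0.17 (adjusted p = 0.132 and 0.253) and none of the 11 passed. Between the ages in NeuT mice Selp was higher at 24 weeks (0.65, adjusted p = 0.0415), the single call of this list there. In the arterial and Notch list 1 of 11 rose at both ages, Bmx, a kinase gene of arterial endothelium and myeloid cells (0.52 and 0.58, adjusted p = 0.0193 and 0.0361), at signals under the negative-control median. None of 13 secreted and basement membrane genes passed at either age. The smallest p in that list belonged to Mmrn2 and Thbd at 12 weeks (-0.28 and 0.41, adjusted p = 0.0753 and 0.0579) and to Vwf and Mmrn2 at 24 weeks (0.17 and -0.18, adjusted p = 0.498 and 0.459). As a mean over both ages limma called 6.47% of all genes higher and 2.09% lower. It called 1 ligand gene of 8 higher, 2 receptors of 12 higher and 1 lower, and 2 junction genes of 16 higher and 2 lower. Of 13 transcription factors 2 were higher and 3 lower. In the sinusoidal and the arterial list 1 gene of 11 each was higher, and 1 secreted gene of 13 was lower.

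**Figure D3:**
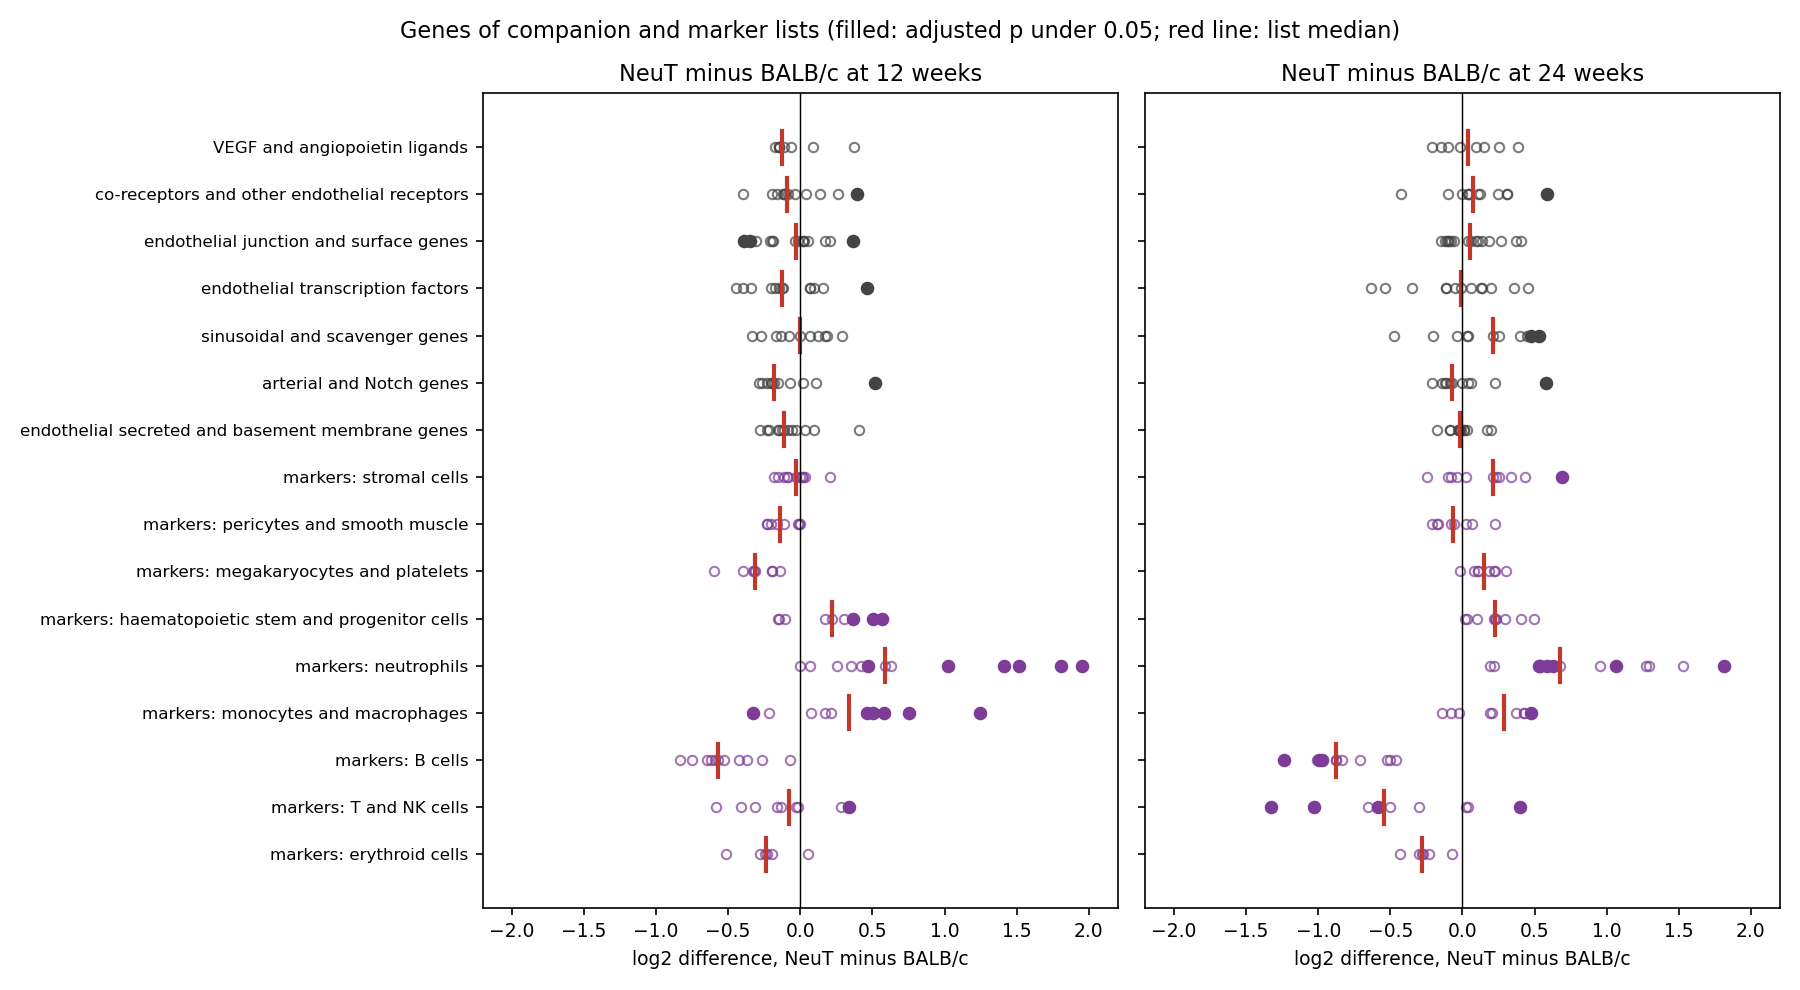
Log2 difference between NeuT and BALB/c mice (x axis) at 12 weeks (left) and 24 weeks (right) for each gene of 7 companion lists (grey) and 9 marker lists (purple), with filled points for an adjusted p under 0.05 and red lines for list medians. The medians of the companion lists lie between -0.18 and 0.00 at 12 weeks and between -0.08 and 0.21 at 24 weeks, and those of neutrophil and B-cell markers lie further out.

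Markers of blood cells moved with the groups. Of 8 megakaryocyte and platelet markers none passed limma's test at 12 weeks, but all 8 values were below 0, with a median of -0.32 against -0.03 over all genes. The array means of that list did not overlap, at 9.77 to 10.33 in 12-week NeuT and 10.37 to 10.70 in 12-week BALB/c mice, which is the split that Cdh5 shows. The same split was seen at 12 weeks in the array means of erythroid markers (10.98 to 11.41 in NeuT and 11.42 to 11.62 in BALB/c mice), of monocyte and macrophage markers (9.18 to 9.50 and, lower, 8.96 to 9.15 in the NeuT and BALB/c mice) and of stem and progenitor markers (9.39 to 9.57 and, lower, 9.23 to 9.38 in the NeuT and BALB/c mice). With the megakaryocyte mean as a covariate the Cdh5 difference at 12 weeks was -0.39 (adjusted p = 0.235). That fit called 29 genes of the whole array at 12 weeks, against 749 in the fit reported. Ppbp and Pf4, platelet chemokine genes, had the smallest p in the list (-0.60 and -0.33, adjusted p = 0.0734 and 0.0767). At 24 weeks the list ran from 10.10 to 10.68 in NeuT and from 10.14 to 10.27 in BALB/c mice, 7 of 8 values were above 0, and none passed. With the megakaryocyte covariate Tie1 passed at 24 weeks (0.41, adjusted p = 0.0203) and Rhoj remained called (0.84). The calls over the whole array at 24 weeks rose to 673 in that fit, against 274 in the fit reported. Neither Tie1 nor Rhoj passed at 24 weeks with the neutrophil and B-cell covariates. Since the megakaryocyte means did not overlap between the models at 12 weeks, the fit with them cannot tell that shift apart from the mouse model. The part of these cell types in the values of Cdh5 was not tested.

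Neutrophil markers rose in 6 of 13 genes at each age, with array means of 10.72 to 12.00 in NeuT and 10.50 to 11.13 in BALB/c mice of 12 weeks, and of 10.99 to 11.87 in NeuT and 10.53 to 10.97 in BALB/c mice of 24 weeks. The largest of these rises were Chil3 (1.96), Mmp8 (1.81), Ltf (1.52) and Lcn2 (1.41) at 12 weeks and Ltf (1.82), Mmp9 (1.07), Cebpe (0.62) and Ngp (0.59) at 24 weeks. Among B-cell markers 3 of 11 fell at 24 weeks, Spib (-1.24), Blk (-0.997) and Pou2af1 (-0.97), with array means of 9.72 to 10.88 in NeuT and 10.92 to 11.23 in BALB/c mice. NeuT 24-week replicates 1 and 4, which had the highest Rhoj signals, had the lowest B-cell means of that age (9.72 and 9.88). They also had the lowest T and NK cell means (8.78 and 8.75) and erythroid means (10.46 and 10.54) of that age. The lowest B-cell mean of all arrays was 9.51, in NeuT 12-week replicate 1, where Rhoj read 9.81. At 12 weeks no B-cell marker passed, and the means were 9.51 to 10.90 in NeuT and 10.84 to 11.07 in BALB/c mice. All 11 B-cell values were below 0 at that age, with a median of -0.57 against -0.03 over all genes. Of 9 stem and progenitor markers 3 rose at 12 weeks, Cd48 (0.56), Meis1 (0.51) and Cd34, and none passed at 24 weeks, where the array means were 9.51 to 9.73 in NeuT and 9.30 to 9.53 in BALB/c mice. As a mean over both ages, 11 of 13 neutrophil and 6 of 9 progenitor markers were called higher, where 6.47% of all genes were. Of 11 B-cell markers 8 were called lower, where 2.09% of all genes were. At 24 weeks neither the neutrophil nor the B-cell means overlapped between the models. The fit with them as covariates therefore cannot tell these shifts apart from the mouse model. The part of these shifts in the values of Rhoj was not tested.

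Of 10 monocyte and macrophage markers 5 rose at 12 weeks, led by Ccr2 (1.25), Lyz2 (0.76), Ly86 (0.58) and Fcgr1 (0.50). In the same comparison 1 fell, and 8 of the 10 values were above 0. At 24 weeks Vcam1 was the single call, and 7 of the 10 values were above 0. C1qa, C1qb and C1qc were below 0 at that age (-0.14, -0.02 and -0.08) without passing. None of 11 stromal markers passed at 12 weeks, when their array means were 8.06 to 8.15 in NeuT and 8.01 to 8.25 in BALB/c mice. At 24 weeks Igfbp5, a binding protein gene for insulin-like growth factors, rose (0.69, limma adjusted p = 0.0492), and the array means were 8.08 to 8.38 in NeuT and 7.99 to 8.09 in BALB/c mice. None of 8 pericyte and smooth muscle markers passed at either age, and Notch3 and Cspg4 had values of -0.20 and -0.16 at 12 weeks (adjusted p = 0.206 and 0.245). In the T and NK cell list Nkg7 rose at both ages (0.34 and 0.40), and Gzma (-1.33), Cd2 (-1.03) and Cd3e (-0.58) fell at 24 weeks, when the array means of that list did not overlap, at 8.75 to 9.11 in NeuT and 9.14 to 9.56 in BALB/c mice. None of 6 erythroid markers passed at either age. At 12 weeks 1 of the 6 values was above 0, the median was -0.24, and Slc4a1 and Epor differed by -0.51 and -0.25 without passing (adjusted p = 0.0819 and 0.237).

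The 10 endothelial genes, dim ones included, did not vary together as a set within groups. Over the 18 arrays, after each group's mean was subtracted, the 45 pairs of members had a median Pearson correlation of 0.04, with 23 pairs above 0. These correlations are a description, since the arrays share their normalisation and each group its cell mixture. The highest was 0.61 for Tie1 and Rhoj and the lowest -0.55 for Pecam1 and Tek. Next to the highest came Kdr and Stab2 (0.55) and Emcn and Stab2 (0.52). The signals of Tek, Stab2 and Emcn lay under or about the negative-control median, which limits what pairs with them can show. Cdh5 had a correlation of 0.51 with Kdr and -0.47 with Tie1. The genes outside the 10 whose deviations were most like the members' mean standardised deviation were Phf20l1 (0.80), Fat1 (0.79), Taf4b (0.78), Cep89 (0.77), Aar2 (0.77), Vmn1r229 (0.76), Hnrnpa0 (0.75) and Zfp433 (0.75). None of these 8 passed at either age by limma, and none belongs to the companion lists. They are the top of a ranking over all genes, and whether such values arise by chance was not tested. The members themselves did not vary together as a set, so this likeness is a description only.

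**Figure D4:**
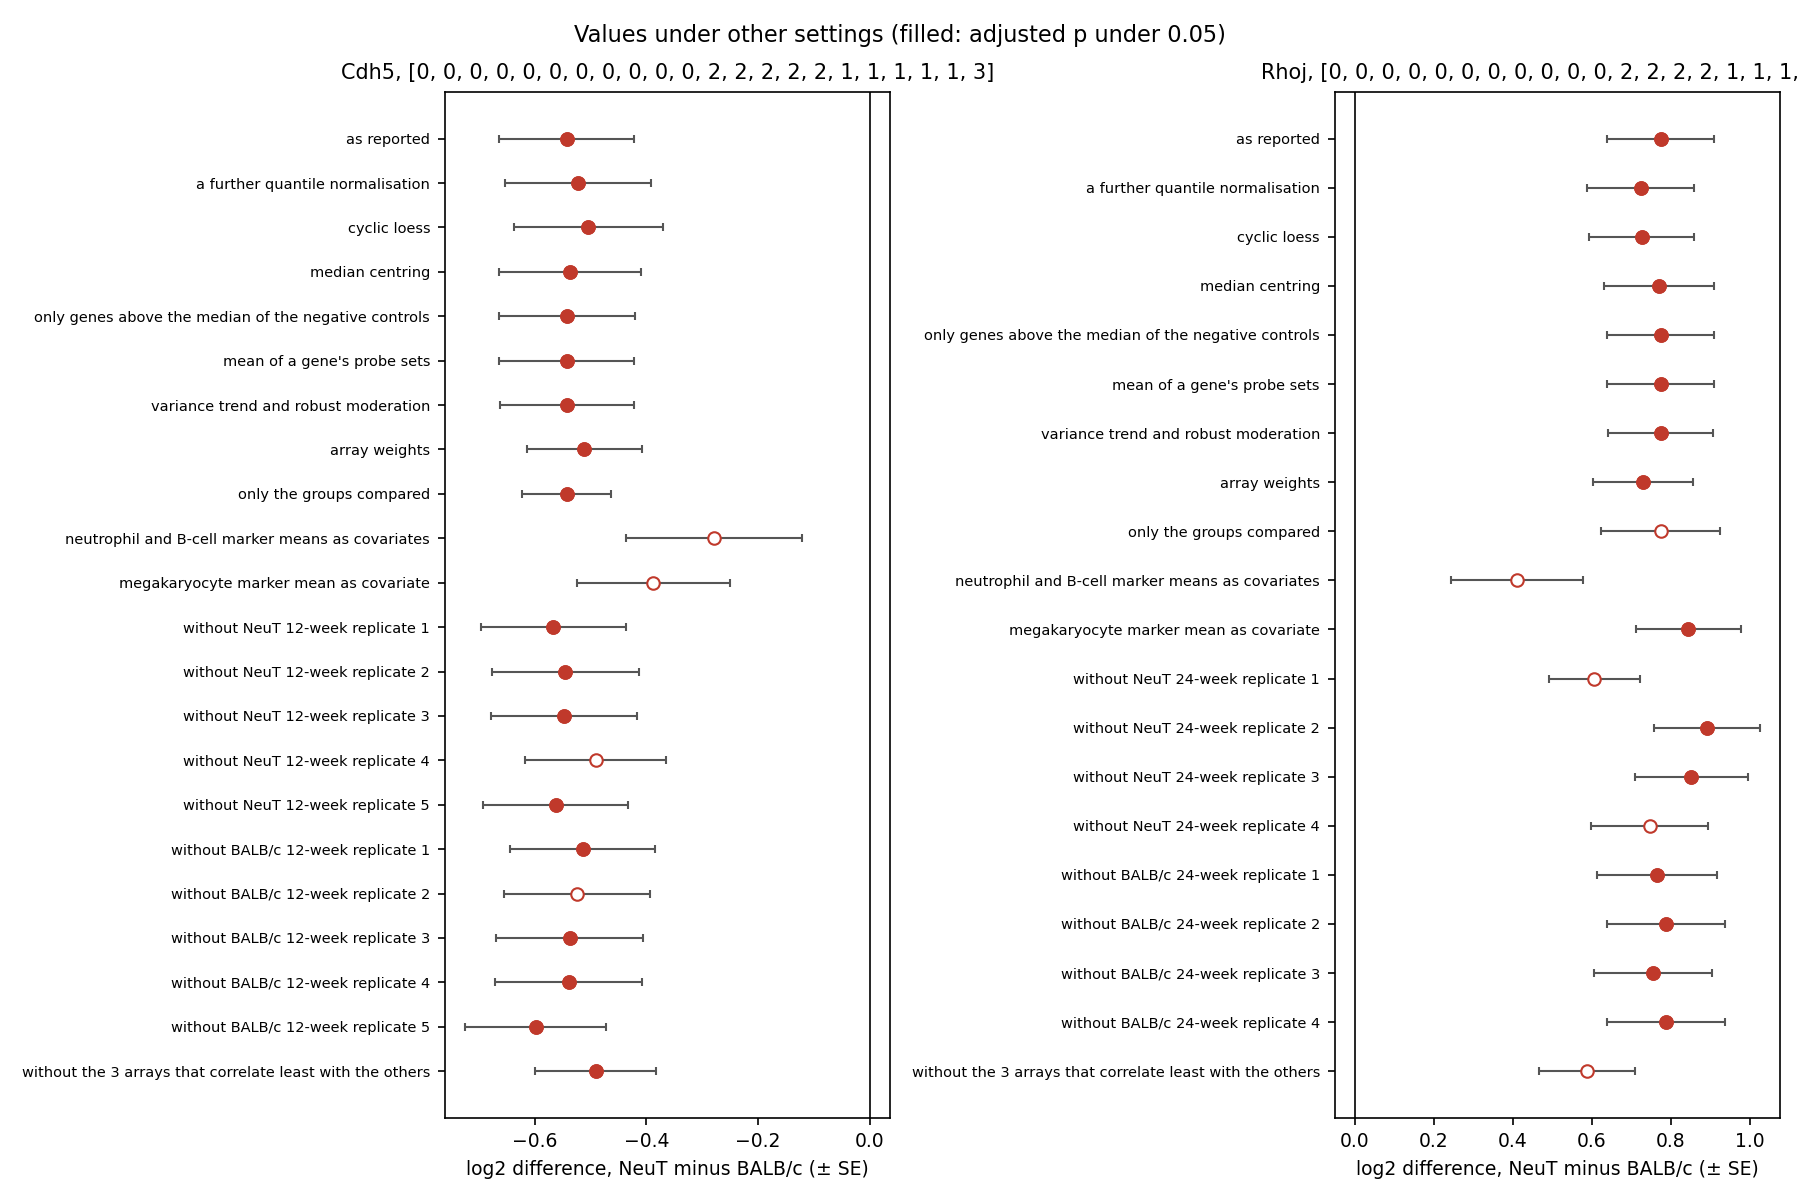
Log2 difference (x axis, ± SE) of Cdh5 between 12-week NeuT and BALB/c mice (left) and of Rhoj between 24-week NeuT and BALB/c mice (right) under each setting (y axis), with filled points for an adjusted p under 0.05. Both keep their direction in every setting drawn, and the values nearest 0 are those with neutrophil and B-cell covariates (-0.28 and 0.41).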

How the data were processed

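Per the labels, the miRNeasy kit gave total RNA, which was then biotinylated. The deposited values are log2 signals, 1 per probe set, made by the authors with RMA (background correction, quantile normalisation and summary of probes) and the Transcriptome Analysis Console, per the submitters' processing notes. For neither is a version or a build given in the sources used here. Of 29129 probe sets 19572 had 1 gene symbol, and the brightest on average was kept for the 55 genes with several, leaving 19505 genes, dim ones included. Precision is limited by the number of arrays.

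A model with 4 group means was fitted with limma 3.58.1 in R 4.3.3 (14 residual and 8.68 prior degrees of freedom) and tested on simulated data. The replicates are different mice by their IDs, and groups were taken from the labels. For 1 NeuT mouse of 12 weeks the labels give 2 different IDs. Members, lists, tests and alternatives were chosen with earlier results of these data known. All 10 members are named. From each companion list up to 4 genes past the threshold are named in each comparison of the models within an age, those of largest change, otherwise the 2 of smallest p. Further named are the 8 genes most like the members' mean deviation, without provisional names. Genes of the marker lists were named after their values were seen. The alternatives were 3 normalisations, a filter on dim genes, the mean over probe sets, 2 other moderations, fits of the groups compared, 2 sets of marker covariates, leaving out each array, exact tests and, added after seeing the data, leaving out 3 arrays. Two-sided exact permutation tests were run on single members. Genes of the lists without a named probe set were not analysed here, and 1 companion list is not reported here. Python 3.11.15 with matplotlib 3.10.9 drew the figures.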

Additional observations from a re-analysis of the deposited data

Results flagged for a closer look

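Within-group spread was checked for each of the 10 genes in the 4 groups, 40 checks in all, by the gap between the most extreme mouse and its nearest neighbour relative to the group's range. In 4 of the 40 the gap passed Dixon's 95% critical value, where chance gives about 1 in 20. Cdh5 in NeuT 12-week replicate 4 was 7.64, with the other 4 mice at 7.85 to 7.94. Kdr in BALB/c 24-week replicate 4 was 8.89, with the other 3 at 8.29 to 8.31. Tie1 in BALB/c 12-week replicate 4 was 9.13, with the others at 9.26 to 9.29, and in BALB/c 24-week replicate 1 it was 8.90, with the others at 9.25 to 9.30.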

How the results depend on the processing

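Counts of called members are given here against those reported (1 at 12 weeks, 1 at 24 weeks, 2 for the mean of both ages, 0 for the difference of the effects, and 1 and 0 for age in NeuT and BALB/c mice). At 12 weeks the count was 2 with array weights and 2 with exact permutation tests (unadjusted, Cdh5 and Flt4), and 0 with the neutrophil and B-cell or the megakaryocyte covariate. At 24 weeks it was 2 with array weights, the megakaryocyte covariate and exact permutation tests (unadjusted, Tie1 and Rhoj), and 0 in the fit of the groups compared, with neutrophil and B-cell covariates and without the 3 arrays that correlate least, a setting chosen after seeing the data. For the mean of both ages it was 0 after cyclic loess or a further quantile normalisation and with either covariate fit, and 1 without the 3 arrays. For age in NeuT mice it was 0 after a further quantile normalisation, cyclic loess or median centring, in the fit of the groups compared and without the 3 arrays, and 2 with the megakaryocyte covariate. For age in BALB/c mice it was 1, Kdr, with array weights and with neutrophil and B-cell covariates. Array weights called 2088 genes of the whole array at 12 weeks, against 749 as reported. They called 577 at 24 weeks and 2375 for age in BALB/c mice, against 274 and 113 as reported. The neutrophil and B-cell fit called 417 for age in BALB/c mice. The megakaryocyte fit called 149 for age in NeuT mice, against 7 as reported. Exact permutation tests (unadjusted) gave 2 for age in NeuT mice (Tie1 and Rhoj, both p = 0.00794, the smallest possible) and 2 in BALB/c mice (Kdr, p = 0.0397, and Rhoj, p = 0.0159). The exact tests were run on the members alone, so their counts have no share over all genes beside them. Without 1 array the count ran from 0 to 1 at 12 weeks, 0 to 2 at 24 weeks, 0 to 2 for the mean of both ages, 0 to 2 for age in NeuT and 0 to 1 for age in BALB/c mice, and was 0 throughout for the difference of the effects. Of 1708 values of single members under the alternatives 63 had another sign than reported, none of them called in either fit. The genes called over the whole array moved as well: 749 at 12 weeks became 230 to 1363 without 1 array and 4 to 2088 otherwise, 274 at 24 weeks became 8 to 641 and 1 to 673, 1670 for the mean became 979 to 2152 and 3 to 2452, 2 for the difference of the effects became 1 to 3 and 0 to 10, 7 for age in NeuT mice became 1 to 177 and 0 to 149, and 113 for age in BALB/c mice became 0 to 589 and 8 to 2375. The share of calls that were higher was 82.1% at 12 weeks, 67.4% with arrays quantile-normalised again and 68.6% by cyclic loess, and at 24 weeks it was 84.3%, 69.3% and 72.3%. The cause of these changes was not tested. The filter on dim genes removed Tek and Stab2, and the fit of the groups compared gives no value for the mean or the difference of the effects. No paired analysis was possible because the labels give each mouse its own ID and no replicate number shared between groups. The signals of Tek and Stab2 under the negative-control median, and of Emcn about it, limit what their values can show.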
